A study of Mus musculus with 12 samples.

Results

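The 10 genes described here are the immediate early transcription factors Fos, Fosb, Jun, Junb, Jund, Egr1, Egr2, Atf3 and Nr4a1, and Arc, an immediate early gene of neurons and migratory dendritic cells. They were taken by gene name from the 36254 genes of the deposited mouse table. All 10 were matched, and all 10 passed the filter on low counts, Arc only through the groups other than Model. RNA of C57 mice was sequenced in 12 libraries, 3 in each of 4 groups. Control is normal lung, and Model is an orthotopic lung tumour, grown inside the lung, with no amino acid treatment. The groups Taurine and Proline are orthotopic lung tumours of mice given taurine or proline. The age and sex of the mice, any allele they carry, the tumour cells, and the dose, route and duration of treatment were not stated in the labels used. The tissue label names lung tumour for all 12 libraries, whereas the series' design text calls the controls normal lung.

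Immediate early genes are transcribed within minutes of a stimulus, because the factors that switch them on are already present in the resting cell. Serum response factor with its cofactors, and factors of the CREB family, read growth factor, stress and calcium signals at their promoters, and the transcripts decay quickly through AU-rich elements. Fos and Jun proteins pair into the dimeric factor AP-1, Egr1 and Egr2 are zinc finger factors, Atf3 is a stress-induced relative of CREB factors, and Nr4a1 is an orphan nuclear receptor. The transcripts are also known to rise when tissue is handled or dissociated.

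The libraries held 56542745 to 69456490 counts, and 23191 genes were tested. Lung markers were checked against the normal lung label. The summed level of 7 alveolar type 2 genes ran from 23881 to 26555 CPM (counts scaled to library size) in Control and from 55.8 to 93.0 CPM in 8 of the 9 tumour libraries. The library Proline 1 stood apart at 786 CPM of these genes, so the log2 fold changes of Proline are also given without it. Skeletal muscle transcripts were most abundant in Taurine 3, at 2224 CPM summed over 7 genes. They came to 773 CPM in Proline 2, 494 CPM in Proline 3, 387 CPM in Model 1, 40.7 to 205 CPM in the other Model and Taurine libraries, 7.01 CPM in Proline 1 and 15.3 to 19.3 CPM in Control. The comparisons of Taurine with Model and with Proline are therefore also given without Taurine 3. Liver transcripts were found in Model 1 and Model 2 (135 and 170 CPM summed over 7 genes, 3.25 CPM or less in the other tumour libraries), and kidney transcripts in Model 3, Taurine 1 and Taurine 2 (51.2 to 60.7 CPM summed over 6 genes). Nothing in the labels says that the libraries of a group are separate animals, so the p-values measure only the spread between these samples.

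The promoters of the genes that the results turn on were searched for exact matches to a few control elements. RefSeq windows from 250 bases before to 50 bases after the annotated start (build GRCm38.p6) were at hand for 8 of the 10 genes, in 12 windows of which 5 belong to Egr2. The 4 windows below are Fos (chr12:85473640-85473939, + strand), Nr4a1 (chr15:101266596-101266895, + strand), Junb (chr8:84978699-84978998, − strand) and Egr2 (chr10:67537619-67537918, + strand). Among the genes with a window, Fos and Nr4a1 had the 2 largest losses in tumour. Junb had the smallest edgeR p among them in Proline against Model. Egr2 had fitted differences from Model of opposite sign in the 2 treatments. Each window is written along the gene's own strand, and capitals mark the letters that a motif search matched.
Fos: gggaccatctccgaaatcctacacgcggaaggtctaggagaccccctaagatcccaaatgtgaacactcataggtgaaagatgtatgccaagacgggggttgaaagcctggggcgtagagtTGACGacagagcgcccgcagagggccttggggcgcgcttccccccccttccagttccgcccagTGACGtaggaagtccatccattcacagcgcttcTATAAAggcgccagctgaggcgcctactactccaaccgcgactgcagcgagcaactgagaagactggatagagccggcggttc
Nr4a1: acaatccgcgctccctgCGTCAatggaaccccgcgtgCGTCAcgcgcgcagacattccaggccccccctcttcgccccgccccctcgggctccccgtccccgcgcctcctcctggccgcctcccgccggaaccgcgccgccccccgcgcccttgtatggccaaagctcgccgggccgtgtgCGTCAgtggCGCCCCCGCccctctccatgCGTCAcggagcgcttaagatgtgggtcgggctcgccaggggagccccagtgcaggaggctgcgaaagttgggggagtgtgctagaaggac
Junb: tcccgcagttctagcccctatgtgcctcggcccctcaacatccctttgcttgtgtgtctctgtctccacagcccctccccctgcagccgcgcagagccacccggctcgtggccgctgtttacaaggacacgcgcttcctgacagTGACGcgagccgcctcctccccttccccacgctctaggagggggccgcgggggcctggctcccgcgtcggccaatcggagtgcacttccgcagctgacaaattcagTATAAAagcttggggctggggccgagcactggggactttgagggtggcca
Egr2: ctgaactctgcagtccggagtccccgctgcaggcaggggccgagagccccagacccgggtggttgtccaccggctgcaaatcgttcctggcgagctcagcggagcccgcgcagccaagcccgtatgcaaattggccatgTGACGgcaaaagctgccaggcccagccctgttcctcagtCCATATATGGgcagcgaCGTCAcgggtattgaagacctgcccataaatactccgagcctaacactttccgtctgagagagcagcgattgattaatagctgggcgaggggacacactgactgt

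Motifs were searched on both strands. A match on the strand opposite to the one printed appears as the reverse complement. The core of the cAMP response element, TGACG, was found in 6 of the 8 genes, and 20.8% of all 32851 mouse windows of the same length hold it. It lies at −129 and −66 from the start in Fos, at −106 in Junb, at 4 places from −233 to −40 in Nr4a1, and at −111 and −55 in the Egr2 window shown, each counted to the leftmost base of the match. The CArG box, the element bound by serum response factor, was matched in 4 of the 5 Egr2 windows, as CCATATATGG at −72 in the window shown, and in no window of the other 7 genes. Some of the Egr2 windows overlap and hold the same site, so their matches are not separate sites. The CArG box is in 1.63% of all windows. The TATA box TATAAA was matched in Fos at −33 and in Junb at 0 (13.6% of all windows), and the Egr site GCGNGGGCG in Nr4a1 at −60 and in Fosb at −50 (5.55% of all windows). Neither the full cAMP response element TGACGTCA, which contains the core, nor the AP-1 site TGANTCA was matched in a window of the 8 genes, against 1.79% and 7.81% of all windows. A match describes the letters only, and elements outside these windows were not searched. Sites inside the windows that differ from these patterns by a letter were not counted either.

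The comparison of Model with Control asks how the orthotopic tumour differs from normal lung. All 10 genes were lower in tumour, and in all 10 the Model and Control values did not overlap. The falls were steepest in Nr4a1, Fos, Egr1, Fosb and Arc, and mildest in Jund. With edgeR's quasi-likelihood test and Benjamini-Hochberg adjustment over all 23191 genes, all 10 passed an adjusted p of 0.05. Of all genes tested, 29.3% passed as lower. Arc is among the 10, but it passed the filter on low counts only through groups other than Model, so its p is no support. Values that did not overlap between the groups and were lower in Model were found in 33.7% of all genes. The median log2 fold change of the 10 genes was −3.17, and that of all genes −0.03. Bulk RNA does not tell apart fewer cells of a type and less RNA per cell.

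**Figure D1:**
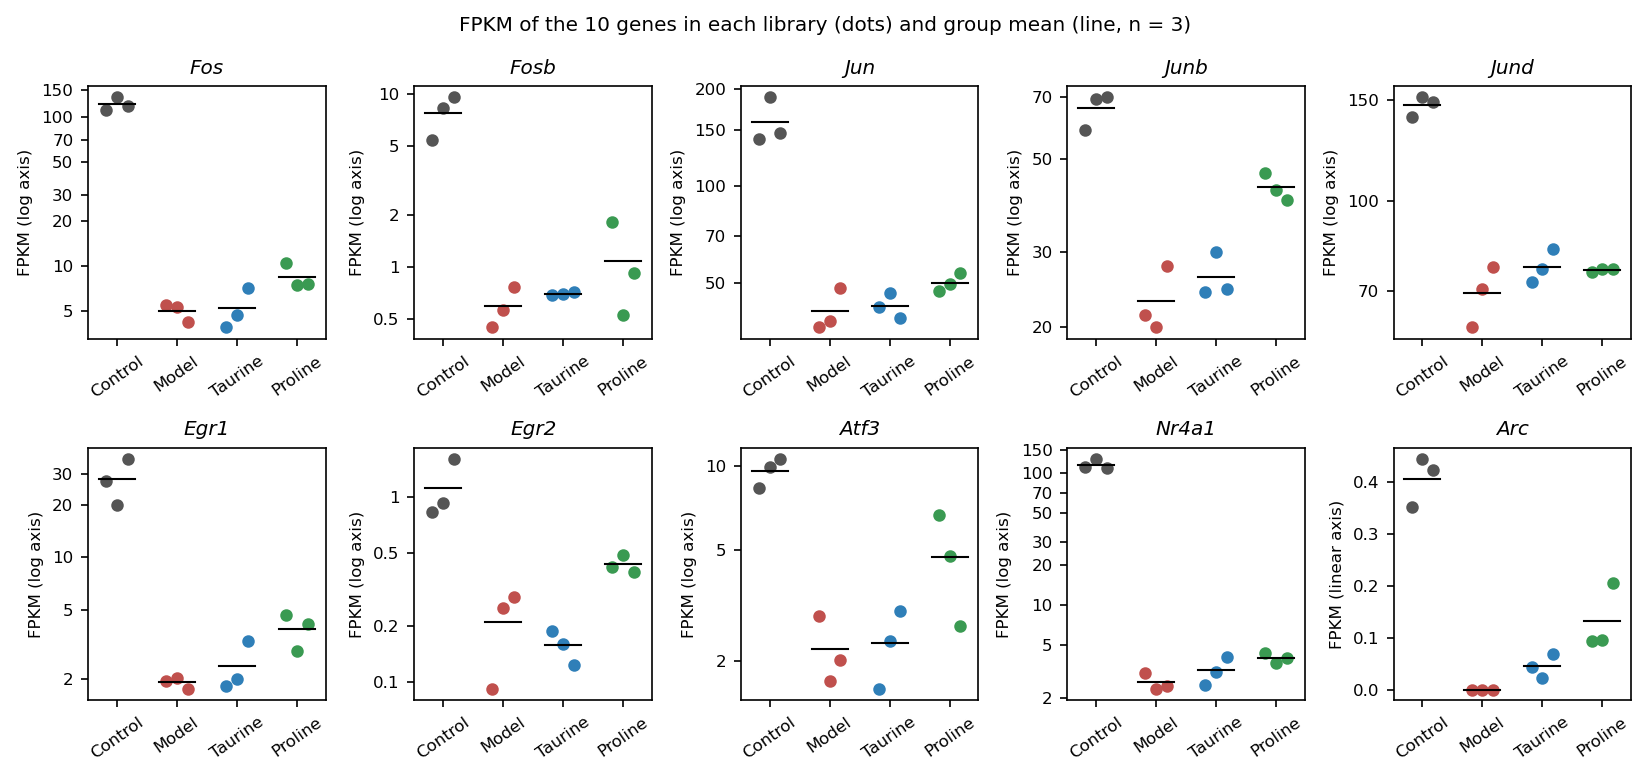
FPKM of each of the 10 genes (vertical axis, log scale except for Arc, which has a linear axis) in the 12 libraries by group, with dots for libraries and lines for group means (n = 3). The 3 Control libraries lie above the 9 tumour libraries for all 10 genes, with Nr4a1 at 108 to 127 FPKM in Control and 2.34 to 4.37 FPKM in the tumours.

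Levels are given as FPKM, fragments scaled by gene length and library size, as the authors deposited them, so that genes of different length can be compared. The rapidly induced Fos subunits, which pair with Jun proteins, had the largest falls among the AP-1 members. Fos, the founding Fos-family subunit, stood at 112, 135 and 118 FPKM in the 3 Control libraries and at 5.50, 5.35 and 4.24 FPKM in the 3 Model libraries. Its log2 fold change was −4.71 (SE 0.25, adjusted p = 4.20e-08 by edgeR), 26.2-fold lower. Fosb, the second rapidly induced Fos-family subunit, went from 5.39, 8.34 and 9.57 FPKM to 0.445, 0.564 and 0.759 FPKM, a log2 fold change of −3.82 (SE 0.43, edgeR adjusted p = 1.67e-05). For both genes the highest Model library lay far under the lowest Control library, and Model held 4.15% of the mean Control level of Fos and 7.58% of that of Fosb.

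The Jun subunits fell less than their Fos partners. Jun, the factor that can also bind DNA as a dimer with itself, had 139.7, 189 and 146 FPKM in Control and 36.3, 37.9 and 48.2 FPKM in Model, a log2 fold change of −2.07 (SE 0.15, edgeR adjusted p = 4.01e-07). Junb, which is known to temper Jun in several settings, had 58.6, 69.3 and 69.8 FPKM in Control and 21.3, 19.9 and 27.8 FPKM in Model, a log2 fold change of −1.63 (SE 0.15, edgeR adjusted p = 3.08e-06). Jund, the subunit that is expressed in resting cells and responds least to stimuli, had 140.2, 151 and 148 FPKM in Control and 60.6, 70.7 and 77.2 FPKM in Model. Its log2 fold change of −1.19 (SE 0.09, edgeR adjusted p = 1.01e-06) was the smallest of the 10. In Model, Jund, Jun and Junb kept 47.4%, 25.8% and 34.9% of the mean Control level.

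Among the other factors, the nuclear receptor Nr4a1 fell most. It was at 110.4, 127 and 108 FPKM in Control, close to Fos, and at 3.06, 2.34 and 2.46 FPKM in Model, 47.7-fold lower (log2 fold change −5.58, SE 0.20, edgeR adjusted p = 3.55e-09). Its mean in Model was 2.27% of that in Control. Egr1, which links growth factor signals to genes of growth and matrix, had 27.2, 20.1 and 36.5 FPKM in Control and 1.97, 2.05 and 1.77 FPKM in Model, a log2 fold change of −3.97 (SE 0.30, edgeR adjusted p = 6.10e-07). Egr2, the relative known from nerve myelination and lymphocytes, was low throughout, at 0.832, 0.930 and 1.61 FPKM in Control and 0.0915, 0.251 and 0.286 FPKM in Model, with a log2 fold change of −2.51 (SE 0.44, edgeR adjusted p = 0.000522). Atf3 had 8.31, 9.90 and 10.6 FPKM in Control and 2.89, 1.70 and 2.02 FPKM in Model, and its log2 fold change was −2.24 (SE 0.36, edgeR adjusted p = 0.000240). In none of these 4 genes did a Model library reach the lowest Control library.

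Arc, whose protein acts on AMPA receptor endocytosis at synapses and which is also known from migrating dendritic cells, was the only member not counted at all in Model. It had 85, 108 and 104 counts in Control (0.351, 0.444 and 0.423 FPKM) and 0 counts in each Model library. Against a floor of 3 counts over the 3 Model libraries together, Arc was at least 114-fold higher in Control. There 297 counts gave 1.73 CPM (edgeR adjusted p = 1.40e-05). As Arc passed the filter on low counts only through groups other than Model, this p is a description only. The summed level of 8 neuronal genes moved the same way as Arc, from 89.7 to 103 CPM in Control to 7.63 to 9.33 CPM in Model. Of the 8 genes 5 were lower and 1 higher, by very different amounts. Stmn2 (log2 fold change −5.90) and Rbfox3 (−6.45, SE 1.77) fell furthest. Syp (−3.13), Syt1 (−1.68) and Map2 (−1.03) fell less, and Nefl (8.68) rose. The 6 genes of migratory dendritic cells did not move together. Their sum rose from 94.3 to 128 CPM in Control to 394 to 459 CPM in Model, although 3 of the 6 were lower and 1 higher. Ccr7 (log2 fold change −4.03), Ccl22 (−3.56) and Cd83 (−2.88) fell, as Arc did, and Fscn1 (3.98) rose. The part of either cell type in the Arc values was not tested.

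The markers of other cell types moved in different directions. All 7 alveolar type 2 genes and all 7 endothelial genes were lower in Model, the latter summing to 4511 to 4922 CPM in Control and 165 to 193 CPM in Model. Sftpc, the surfactant gene that defines alveolar type 2 cells, was at 0 counts in Model 2. Of 7 macrophage genes 6 were higher, with a sum of 287 to 417 CPM in Control and 1381 to 1487 CPM in Model. Of 7 fibroblast genes 4 were lower and 2 higher, of 7 T-cell genes 2 were lower, and of 6 neutrophil genes 1 was lower. The part of these cell types in the values of the 10 genes was not tested.

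The make-up of AP-1 transcripts differed between lung and tumour, with Fosl1 high where Fos was low. Over the 7 Fos- and Jun-family genes (Fos, Fosb, Fosl1, Fosl2, Jun, Junb, Jund), the summed level was 508 ± 48.8 FPKM in Control and 177 ± 25.6 FPKM in Model (SD, n = 3). Fos made up 23.9 ± 0.280% of this sum in Control and 2.91 ± 0.761% in Model. Fosl1, which encodes the late-induced subunit Fra-1, was at 0.158, 0 and 0.0237 FPKM in Control and at 19.4, 24.0 and 35.04 FPKM in Model. Its fitted log2 fold change was 8.49 (SE 0.67, edgeR adjusted p = 9.17e-07), from a Control level near 0. Fosl1 passed the filter on low counts only through the tumour groups, so this p is a description only. Fosl1 made up 14.5 ± 2.34% of the Model sum. All 4 Fos-family genes together came to 26.97 ± 0.0802% of the sum in Control and 24.6 ± 0.706% in Model, and Jund grew from 28.98 ± 1.73% to 39.3 ± 1.99%.

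**Figure D2:**
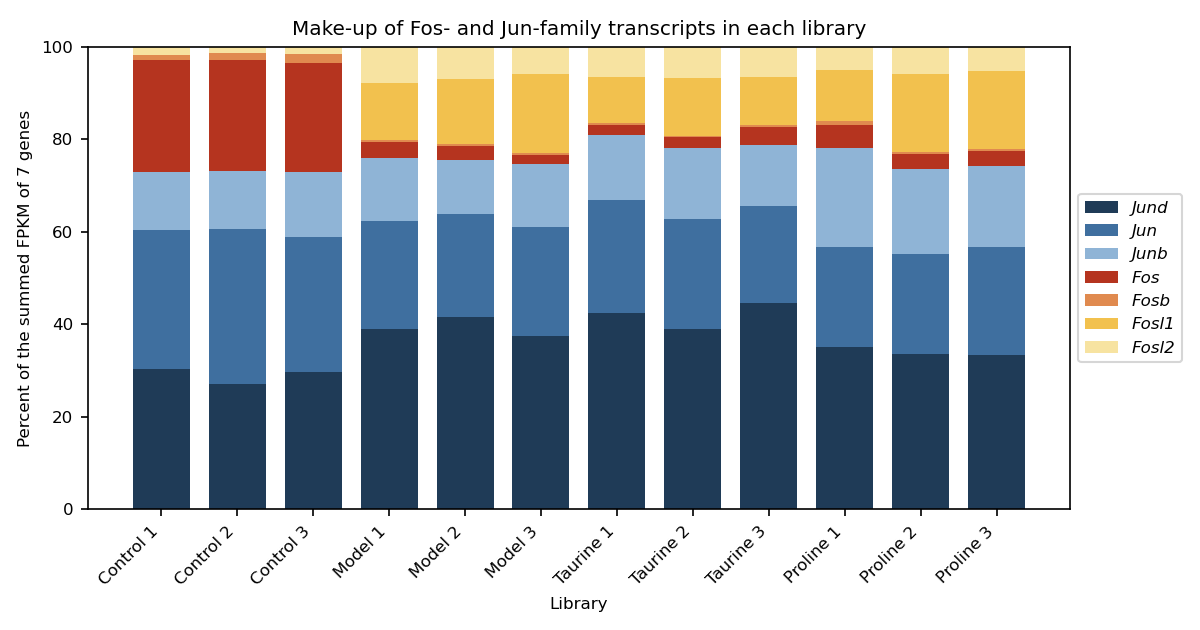
Share of each of 7 Fos- and Jun-family genes in their summed FPKM (vertical axis, percent) in each of the 12 libraries, as stacked bars. Fos fills 23.6% to 24.1% of the Control bars and at most 4.84% of any tumour bar, whereas Fosl1 fills at most 0.0342% in Control and 9.84% to 17.1% in the tumours.

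Other genes of the same circuit went both ways, and 28.8% of all genes tested passed as higher in Model. Of 12 other AP-1 family factors 4 rose and 6 fell in Model. Besides Fosl1, Fosl2 (log2 fold change 0.51) and Maf (0.89) rose, whereas the small Maf factors Mafk (−1.88) and Maff (−0.90) and the lymphoid factor Batf (−1.33) fell. Of 34 other immediate early genes tested 5 rose and 18 fell, with a median log2 fold change of −0.86. Among them Klf2 (−3.97), Klf4 (−4.20) and Ier2 (−2.19) fell, and Myc (5.46), Ier5l (2.48) and Gadd45a (1.79) rose. The closest relatives of the members, named after their values were seen, split as well: the nuclear receptors Nr4a2 (−1.64) and Nr4a3 (−4.50) fell, and Egr3 had a log2 fold change of 0.29 (edgeR adjusted p = 0.353).

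The inhibitors of the circuit did not all follow it. Of 12 inhibitors and feedback genes 3 rose and 6 fell in Model. Dusp1 (log2 fold change −4.35), a phosphatase that switches off stress kinases, and Zfp36 (−3.72) and Zfp36l1 (−1.65), which promote decay of AU-rich transcripts, fell. Dusp4 (0.88), Dusp5 (0.90) and Zfp36l2 (0.95), of the same gene families, rose. Of 21 genes that carry signals to the promoters 8 rose and 10 fell: Mrtfa (0.71) and Atf1 (1.10) were among those that rose, and Mapk3 (−1.36) and the kinases Rps6ka1 (−2.24) and Rps6ka2 (−1.76) fell. Of 16 textbook targets of AP-1 and Egr1 7 rose and 3 fell, with a median of 0.83. The protease gene Plau (3.17), the metalloproteinase inhibitor Timp1 (2.27) and the chemokine Ccl2 (5.42) rose, and Pdgfa (−2.50), Tgfb1 (−0.55) and Mmp3 (−1.98) fell. Of 8 heat shock genes Hspd1 (1.93) and Hspe1 (1.24) rose, 4 fell, among them Hspa1a (−3.12), Hspa1b (−2.73) and Hsph1 (−0.71), and their summed level ran from 898 to 1313 CPM in Control and from 1260 to 1413 CPM in Model.

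The treated tumours were also compared with normal lung. The 3 comparisons with Control share its libraries and are therefore not independent of each other. In Taurine all 10 genes were lower (30.3% of all genes tested passed as lower), with log2 fold changes from −5.23 for Nr4a1 and −4.60 for Fos to −1.41 for Junb and −1.003 for Jund. In Proline all 10 were lower as well (29.5% of all genes), from −4.93 for Nr4a1 and −3.92 for Fos to −1.11 for Atf3 and −1.03 for Jund. Junb had the smallest difference from Control in Proline, −0.71 (SE 0.15, edgeR adjusted p = 0.00153), and its Proline mean was 65.0% of the Control mean, against 34.9% in Model and 39.8% in Taurine. Atf3 in Proline was at 49.0% of Control, Egr2 at 38.4% and Arc at 32.6%, whereas Nr4a1 was at 3.48% and Fos at 7.02%. The Proline call of Arc (−1.70, edgeR adjusted p = 0.0233) was lost without Control 2 (0.0675), Control 3 (0.0627), Proline 1 (0.0783) or Proline 2 (0.0807). The call of Egr2 (−1.47, edgeR adjusted p = 0.0121) was lost without Control 3 (0.0625). Without Proline 1 the other 9 genes still passed, with log2 fold changes from −5.01 for Nr4a1 to −0.78 for Junb, and Fosb moved from −2.91 to −3.52.

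**Figure D3:**
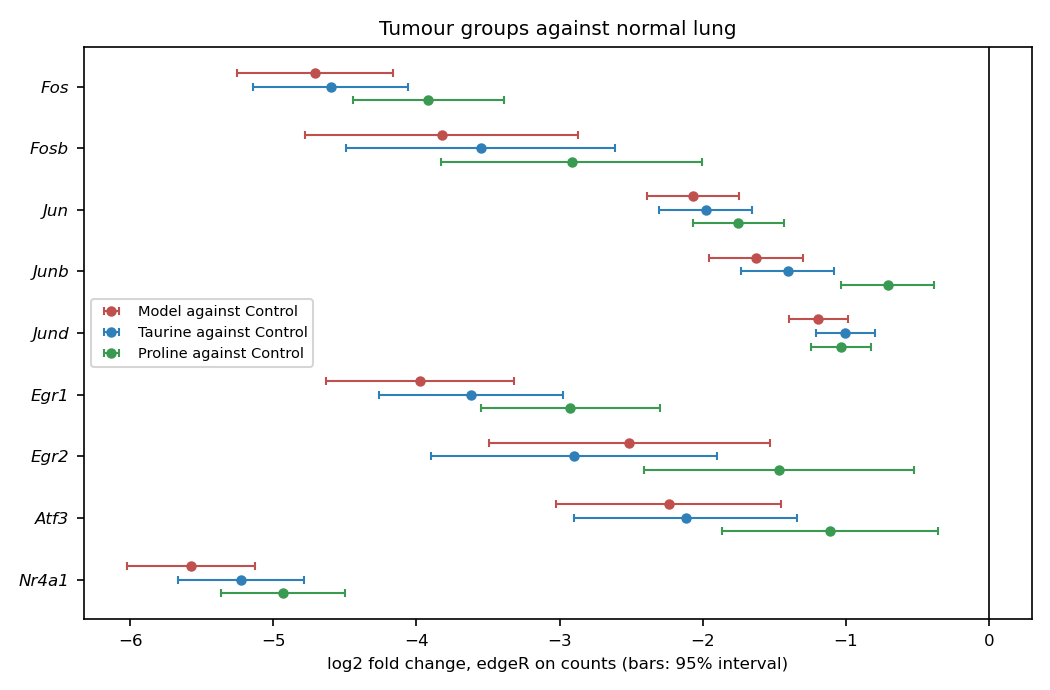
Fitted log2 fold change against Control (horizontal axis) of 9 genes in Model, Taurine and Proline, with 95% intervals from edgeR. Arc is left out because Model holds 0 counts of it. All points lie under 0, from −5.58 for Nr4a1 in Model to −0.71 for Junb in Proline.

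Proline against Model asks what proline treatment changed in the tumour. All 10 genes had a higher mean level in Proline, and in 6 of them (Fos, Junb, Egr1, Egr2, Nr4a1 and Arc) every Proline library lay above every Model library, which was so for 7.90% of all genes tested. With edgeR's quasi-likelihood test 0 of 10 passed an adjusted p of 0.05, and 0% of all genes did. At an unadjusted p under 0.05, 9 of 10 were higher, against 7.19% of all genes, and Jund was the exception. These counts hold Arc, which passed the filter on low counts only through the groups where it is counted, so its p against Model is no support for a difference. DESeq2 called 6 of 10 higher, against 2.32% of all genes, limma voom called Junb and Arc, and limma on FPKM called 0. The median log2 fold change of the 10 genes was 0.91 and that of all genes 0.

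Junb had the smallest edgeR p of the 9 members that are counted in Model. It had 46.3, 42.2 and 40.0 FPKM in Proline, all above the highest Model library at 27.8 FPKM. The log2 fold change was 0.92 with a 95% interval from 0.60 to 1.24 (edgeR adjusted p = 0.113, DESeq2 adjusted p = 8.86e-07). With limma voom its adjusted p was 0.0337, and with edgeR it was 0.0279 without Proline 3 and 0.0123 without Model 3. Junb made up 21.5%, 18.5% and 17.4% of the 7 Fos- and Jun-family genes in the Proline libraries, and 11.7% to 13.7% in Model. Without Proline 1, the library with alveolar transcripts, the Junb log2 fold change was 0.85 (edgeR adjusted p = 0.204). Of 23 alternatives Junb passed in 5 and did not pass in 18.

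Fos and Egr1 showed the same order of groups at lower levels. Fos stood at 10.4, 7.53 and 7.59 FPKM in Proline, with Proline 1 the highest, and the highest Model library had 5.50 FPKM. The log2 fold change was 0.79 with an interval from 0.32 to 1.27 (edgeR adjusted p = 0.205, DESeq2 adjusted p = 0.00852), and 0.61 without Proline 1. Egr1 stood at 4.66, 2.92 and 4.13 FPKM, above the highest Model value of 2.05 FPKM, with a log2 fold change of 1.05 and an interval from 0.46 to 1.64 (edgeR adjusted p = 0.196, DESeq2 adjusted p = 0.00393), and 0.89 without Proline 1. Nr4a1 stood at 4.37, 3.65 and 4.02 FPKM against at most 3.06 FPKM in Model, with a log2 fold change of 0.65 and an interval from 0.27 to 1.02 (edgeR adjusted p = 0.199, DESeq2 adjusted p = 0.00807), and 0.57 without Proline 1. In both genes no Proline library fell within the Model range, yet all stayed far under the lowest Control values of 20.1 and 108 FPKM.

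Arc was counted 26, 25 and 57 times in the Proline libraries and 0 times in Model. The Proline counts sum to 108, or 0.537 CPM, at least 35.4-fold higher than a floor of 3 counts over the Model libraries (edgeR adjusted p = 0.0771, DESeq2 adjusted p = 7.63e-06). With edgeR it passed without Proline 3 (adjusted p = 0.0133), and without Proline 1 it had 0.0792. Proline 3 held the most Arc, and neuronal genes summed to 7.58 to 11.9 CPM in Proline, near their 7.63 to 9.33 CPM in Model. Genes of migratory dendritic cells summed to 377 to 463 CPM in Proline, against 394 to 459 CPM in Model, with 3 genes above 0 and 3 below. The part of either cell type in the Arc values was not tested here either.

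In the remaining members the spread within Proline was wide or the difference small. Egr2 had 0.418, 0.484 and 0.393 FPKM, from 124, 139 and 120 counts, and did not overlap Model, which had 26, 75 and 82 counts. Its log2 fold change was 1.05 with an interval from 0.10 to 1.99 (edgeR adjusted p = 0.328, DESeq2 adjusted p = 0.171), and 1.06 without Proline 1. Atf3 had 6.67, 4.77 and 2.66 FPKM, the last within the Model range, and a log2 fold change of 1.13 with an interval from 0.37 to 1.89 (edgeR adjusted p = 0.229, DESeq2 adjusted p = 0.0283), or 0.77 without Proline 1. Fosb had 1.81 FPKM in Proline 1 and 0.525 and 0.918 FPKM in the others, and its log2 fold change of 0.91 (interval 0.04 to 1.78, edgeR adjusted p = 0.353) became 0.30 without Proline 1.

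Jun had 46.9, 49.4 and 53.7 FPKM in Proline against 36.3 to 48.2 FPKM in Model (log2 fold change 0.32, interval 0.01 to 0.63, edgeR adjusted p = 0.366, and 0.35 without Proline 1). Jund differed least, at 75.4, 76.4 and 76.3 FPKM against 60.6 to 77.2 FPKM, a log2 fold change of 0.16 with an interval from −0.05 to 0.36 (edgeR adjusted p = 0.496), and 0.15 without Proline 1. Jund is the 1 member whose Proline mean was not the highest of the tumour groups.

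**Figure D4:**
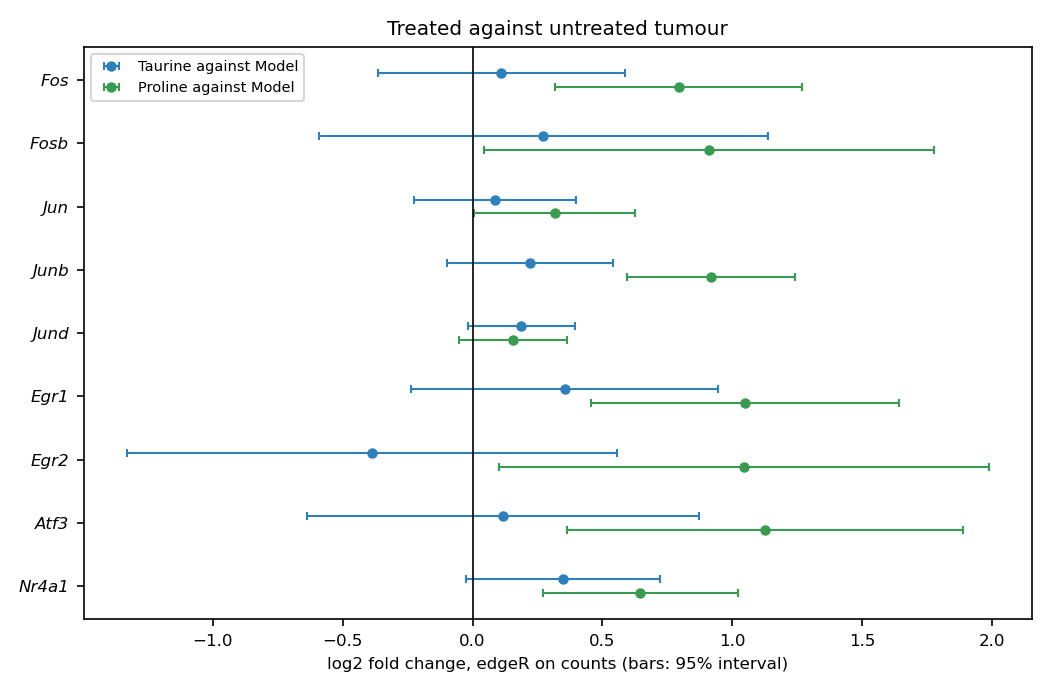
Fitted log2 fold change against Model (horizontal axis) of 9 genes in Taurine and in Proline, with 95% intervals from edgeR. Arc is left out because Model holds 0 counts of it. The Proline points run from 0.16 for Jund to 1.13 for Atf3, and the Taurine points from −0.39 for Egr2 to 0.35 for Egr1 and Nr4a1, with every Taurine interval across 0.

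Some features of the libraries moved with the Proline values. Proline 1 was the highest of the 9 tumour libraries for 6 of the 10 genes, Proline 2 for 1, Proline 3 for 2 and Taurine 3 for 1. Proline 1 also carried the 786 CPM of alveolar type 2 genes and the most endothelial RNA of the tumour libraries (345 CPM over 7 genes), but Proline 2 and Proline 3 had 55.8 and 59.1 CPM of alveolar genes, no more than Model, with Sftpb at 0 counts in both. Without Proline 1 all 10 genes kept a positive difference from Model, with edgeR adjusted p from 0.0792 for Arc to 0.753. Heat shock genes summed to 1626 to 1772 CPM in Proline, above the 1260 to 1413 CPM of Model and the 1437 to 1523 CPM of Taurine. Neutrophil genes summed to 46.1 to 172 CPM in Proline and 33.3 to 82.5 CPM in Model, with the lowest Proline value in Proline 3. Skeletal muscle genes were high in Proline 2 and Proline 3 and lowest in Proline 1. The part of handling or of these cells in the Proline values was not tested.

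The rest of the circuit was measured in the same comparison, and none of its genes passed the edgeR threshold, limma voom or limma on FPKM. Of all genes tested 7.19% were higher at an unadjusted p under 0.05 and 2.32% by DESeq2. Of 34 other immediate early genes 26 had a log2 fold change above 0, with a median of 0.30. Among these 34, 17 had an unadjusted p under 0.05 and 6 were called higher by DESeq2. The smallest p among these immediate early genes belonged to the cytokine signalling inhibitor Socs3 (0.64, edgeR adjusted p = 0.124) and the prostaglandin synthase Ptgs2 (1.47, edgeR adjusted p = 0.225). All 12 inhibitors and feedback genes lay above 0, with a median of 0.28, 3 at an unadjusted p under 0.05 and 1 by DESeq2, led by Nfkbia (0.63, edgeR adjusted p = 0.235) and Dusp5 (0.65, edgeR adjusted p = 0.252). Of 16 AP-1 and Egr1 targets 10 were higher at an unadjusted p and 5 by DESeq2, with a median of 0.49, led by the growth factor gene Pdgfa (0.79) and the adhesion receptor Cd44 (0.45), both with an edgeR adjusted p of 0.183.

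Among 21 genes that carry signals to the promoters 3 were higher at an unadjusted p, against 7.19% of all genes, and 2 by DESeq2, against 2.32%. Their median was 0.04. Srf, which encodes serum response factor, had 16.5, 15.7 and 18.7 FPKM in Proline and 13.3, 13.8 and 14.3 FPKM in Model, which do not overlap (log2 fold change 0.32, edgeR adjusted p = 0.177). Crem, a cAMP-responsive relative of CREB, had a log2 fold change of 0.73 (edgeR adjusted p = 0.202). Of 12 other AP-1 family factors 1 was higher at an unadjusted p and 1 by DESeq2, with a median of 0.14, and the smallest p belonged to Batf2 (2.57, edgeR adjusted p = 0.231) and Mafg (0.15, edgeR adjusted p = 0.411). All 8 heat shock genes lay above 0, with 5 at an unadjusted p, 1 by DESeq2 and a median of 0.49, led by Hsph1 (0.55, edgeR adjusted p = 0.123) and Hspd1 (0.29, edgeR adjusted p = 0.241).

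Taurine against Model puts the same question to taurine. Apart from Arc, which is not counted in Model, the members had fitted log2 fold changes from −0.39 to 0.35. Of all 10 genes 9 lay above 0, with a median of 0.20 and a median over all genes of 0.00. With edgeR 0 of 10 passed, as did 0% of all genes. Arc alone was higher at an unadjusted p (3.29% of all genes), alone was called by DESeq2 (adjusted p = 0.00349; 0.201% of all genes) and alone had no overlap between the groups (4.33% of all genes), and limma voom and limma on FPKM called 0. Since Arc passed the filter on low counts only through the groups where it is counted, these p-values are a description and support no effect of taurine. Arc was counted 13, 7 and 19 times in Taurine, 0.195 CPM in all. This is at least 12.9-fold higher than the floor of 3 counts over the Model libraries (edgeR adjusted p = 0.279). Neuronal genes summed to 7.70, 11.2 and 16.6 CPM in Taurine 1, Taurine 2 and Taurine 3, and all 8 lay above 0. Their part in the Arc values was not tested.

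In Taurine the Fos-family levels overlapped Model. Fos had 3.90, 4.69 and 7.20 FPKM, with Taurine 3 above all Model libraries and Taurine 1 below them (log2 fold change 0.11, interval −0.36 to 0.58). Fosb had 0.687, 0.693 and 0.708 FPKM, within the Model range (0.27, interval −0.59 to 1.14). The Jun family was likewise close: Jun had 41.8, 46.4 and 38.7 FPKM (0.09, interval −0.22 to 0.40), Junb 24.2, 29.99 and 24.5 FPKM (0.22, interval −0.10 to 0.54) and Jund 72.5, 76.4 and 82.7 FPKM (0.19, interval −0.02 to 0.39). A difference of Junb as large as the one fitted for Proline lies outside the Taurine interval. That leaves out the error of the Proline value, and the direct test of Taurine against Proline did not pass (edgeR adjusted p = 0.115).

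Of the other factors in Taurine, Egr1 had 1.84, 2.02 and 3.31 FPKM (log2 fold change 0.35, interval −0.24 to 0.94) and Nr4a1 2.51, 3.10 and 4.09 FPKM (0.35, interval −0.03 to 0.72), in both cases with Taurine 3, the library with the most muscle transcripts, the highest. Atf3 had 1.59, 2.36 and 3.02 FPKM (0.12, interval −0.64 to 0.87). Egr2 had 0.189, 0.160 and 0.123 FPKM, from 57, 47 and 37 counts, and was the member with a fitted difference below 0 (−0.39, interval −1.33 to 0.56). The edgeR adjusted p of these 9 genes ran from 0.740 for Nr4a1 to 0.997 for Atf3. Taurine 3 was the highest Taurine library for Fos, Fosb, Jund, Egr1, Atf3, Nr4a1 and Arc. Without it the log2 fold change was −0.19 for Fos, 0.25 for Fosb, 0.14 for Jun, 0.26 for Junb, 0.13 for Jund, 0.04 for Egr1, −0.25 for Egr2, −0.12 for Atf3 and 0.14 for Nr4a1. The part of muscle in the Taurine values was not tested. The intervals hold differences in either direction, so they do not show that taurine left the genes as they were.

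No gene of the 6 other lists of the circuit and of heat shock passed in Taurine against Model by edgeR, DESeq2, limma voom or limma on FPKM. At an unadjusted p 1 of 34 other immediate early genes, 1 of 12 inhibitors and 1 of 16 targets were lower, against 3.50% of all genes, 1 of 21 signalling genes was higher, and the AP-1 and heat shock lists had 0. The smallest p values belonged to Ier3 (log2 fold change −0.69, edgeR adjusted p = 0.705) and Klf4 (0.39, 0.743) of the immediate early genes, Nab2 (−0.52, 0.705), a corepressor of Egr factors, and Dusp5 (−0.35, 0.767) of the inhibitors, and Hmox1 (−0.77, 0.705) and Cd44 (0.19, 0.760) of the targets. They were Rps6ka2 (0.43, edgeR adjusted p = 0.705) and Rps6ka3 (0.13, 0.748) of the signalling genes, Batf (−0.52, 0.740) and Maff (0.20, 0.874) of the AP-1 factors, and Hspb1 (1.61, 0.761) and Hspd1 (0.12, 0.833) of the heat shock genes.

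Taurine against Proline tests the treatments against each other. Of the 10 genes 9 had a fitted difference below 0, that is, were lower in Taurine, with a median log2 fold change of −0.69. By edgeR 0 of 10 passed, as did 0.0431% of all genes (10 genes). At an unadjusted p 6 of 10 were lower, against 7.44% of all genes, DESeq2 called 4 lower (Fos, Junb, Egr2 and Atf3), against 2.99%, and limma voom and limma on FPKM called 0. In 5 genes (Fos, Jun, Junb, Egr2 and Arc) every Taurine library lay under every Proline library, as in 7.90% of all genes.

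Junb differed by −0.70 on the log2 scale between the treatments (interval −1.02 to −0.38, edgeR adjusted p = 0.115, DESeq2 adjusted p = 0.000511), with 29.99 FPKM in the highest Taurine library and 40.0 FPKM in the lowest Proline library. Egr2 differed by −1.43 (interval −2.39 to −0.48, edgeR adjusted p = 0.180, DESeq2 adjusted p = 0.0301), with at most 57 counts in a Taurine library and at least 120 in a Proline library. Fos differed by −0.68 (interval −1.16 to −0.21, edgeR adjusted p = 0.195, DESeq2 adjusted p = 0.0250) and Atf3 by −1.01 (interval −1.77 to −0.25, edgeR adjusted p = 0.225, DESeq2 adjusted p = 0.0474). In Fos the gap between the groups was narrow, from 7.20 FPKM in Taurine 3 to 7.53 FPKM in Proline 2, and in Atf3 the groups overlapped.

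The other members gave smaller or less certain differences between the treatments. Egr1 differed by −0.70 (interval −1.28 to −0.11, edgeR adjusted p = 0.270), Arc by −1.43 (interval −2.68 to −0.19, edgeR adjusted p = 0.283) and Fosb by −0.64 (interval −1.50 to 0.22, edgeR adjusted p = 0.495). Nr4a1 differed by −0.30 (interval −0.67 to 0.08, edgeR adjusted p = 0.458) and Jun by −0.23 (interval −0.54 to 0.08, edgeR adjusted p = 0.495). Jund, at 0.03 (interval −0.17 to 0.24, edgeR adjusted p = 0.941), was the 1 member not lower in Taurine.

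The values between the treatments depended on single libraries in some members. Without Proline 1 the log2 difference of Fosb was −0.03 in place of −0.64, and that of Atf3 −0.65 in place of −1.01. Without it Fos was at −0.50, Jun at −0.26, Junb at −0.62, Jund at 0.04, Egr1 at −0.53, Egr2 at −1.44, Nr4a1 at −0.22 and Arc at −1.61. Without Taurine 3 the differences ran from −1.82 for Arc and −1.29 for Egr2 to −0.03 for Jund, with Fos at −0.98, Egr1 at −1.01, Atf3 at −1.25, Junb at −0.66, Fosb at −0.66, Nr4a1 at −0.51 and Jun at −0.17. None of the 10 passed the edgeR threshold in either case.

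Markers of some other cell types moved the same way between the treatments, and those of others moved the other way. All 7 T-cell genes lay below 0 in Taurine against Proline, 6 at an unadjusted p and 4 by DESeq2, with a median log2 fold change of −3.44 and sums of 2.34 to 9.55 CPM in Taurine and 5.88 to 48.2 CPM in Proline. All 6 neutrophil genes lay below 0 as well, 5 at an unadjusted p and 3 by DESeq2, with a median of −1.48. Of 7 alveolar type 2 genes 6 lay below 0 and 4 had an unadjusted p under 0.05, and these genes were high in Proline 1 alone. All 7 endothelial genes lay below 0 too, with a median of −0.28, but 0 at an unadjusted p and 0 by DESeq2. Their sum was 345 CPM in Proline 1, 169 CPM in Proline 2 and 164 CPM in Proline 3, against 115 to 219 CPM in Taurine. All 7 skeletal muscle genes (median 1.25) and all 6 kidney genes (median 2.58, 2 by DESeq2) lay above 0. So did 5 of 8 neuronal and 4 of 7 fibroblast genes. The part of these cells in the values of the 10 genes was not tested.

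In the 6 other lists of the circuit and of heat shock no gene passed in Taurine against Proline by edgeR. Of all genes 7.44% were lower at an unadjusted p and 2.99% by DESeq2, and 6.94% and 2.18% were higher. At an unadjusted p 13 of 34 other immediate early genes were lower in Taurine and 2 higher (8 and 1 by DESeq2). The list was led by Ier3 (−1.22, edgeR adjusted p = 0.113) and Ptgs2 (−1.98, 0.119). Of 12 inhibitors 6 were lower (4 by DESeq2), led by Dusp5 (−1.002, edgeR adjusted p = 0.115) and Nab2 (−0.55, 0.125), and of 16 targets 8 were lower (3 by DESeq2), led by Pdgfa (−0.92, 0.115) and Tgfb1 (−0.43, 0.149). Of 21 signalling genes 3 were lower and 1 higher (1 lower by DESeq2), led by Srf (−0.38, edgeR adjusted p = 0.113) and Crem (−0.52, 0.257), and of 12 AP-1 factors 2 were lower (1 by DESeq2), led by Batf2 (−3.26, 0.141) and Batf (−0.65, 0.278). Of 8 heat shock genes 3 were lower (1 by DESeq2 and 1 by limma voom), led by Hsph1 (−0.64, edgeR adjusted p = 0.0685) and Dnajb1 (−0.20, 0.307).

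Across the 4 groups 8 of the 10 genes had their mean FPKM in the order Control, Proline, Taurine, Model from high to low, an order that 5.91% of all genes tested show. Jund ran Control, Taurine, Proline, Model, and Egr2 ran Control, Proline, Model, Taurine. The step from Control to any tumour group exceeded the spread in all 10 genes. The steps among the tumour groups did not pass the edgeR threshold in any of them. In Fos, Jun and Atf3 the step between Taurine and Model changed sign with 1 library left out. The order was chosen with results of these data known, so its share is a description only. Fos, for example, had 121 ± 11.9 FPKM in Control, 8.52 ± 1.66 FPKM in Proline, 5.26 ± 1.72 FPKM in Taurine and 5.03 ± 0.689 FPKM in Model (SD, n = 3). Junb had 65.9 ± 6.31, 42.8 ± 3.21, 26.2 ± 3.26 and 23.0 ± 4.21 FPKM in the same order.

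Over the 9 tumour libraries the genes whose log2 CPM ran most like Fos were sought among all genes tested, as a description. Of the 5 nearest, Ccn1, a matricellular gene known to respond to serum, had a Pearson r of 0.96 (Spearman rho 0.85), and the member Egr1 had an r of 0.94 (rho 0.90). Without the 2 libraries farthest from the median Fos value, Proline 1 and Proline 3, these r were 0.91 and 0.92. The other 3 nearest to Fos, Ighv1-42, Havcr1 and Bcas1, had r from 0.93 to 0.95 but mean levels of only 0.0939 to 0.325 CPM. Among the members, Nr4a1 and Atf3 each had an r of 0.88 with Fos, Junb 0.70 and Jund 0.30. Nearest to Junb were Irf2bp2 (r 0.98, rho 0.97), Cacna1f (r 0.97), Gja1 (r 0.97), Mcl1 (r 0.97, rho 0.98) and Mbd2 (r 0.96). Nearest to Arc were Neu2 and Zbtb11 (r 0.96 each), AA387883 (r 0.95), and Dalrd3 and Fbxo15 (r 0.94 each). The 9 libraries come from 3 treatment groups and share their group differences, so such likeness can arise from the groups alone. The nearest genes were also picked for the highest r of all genes searched, over only 9 libraries. Their high r is thus set by the choice and is no evidence of shared control.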

How the data were processed

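RNA of 12 mouse lung and lung tumour samples was measured by mRNA sequencing. Per the labels' protocols, RNA was purified with a Qiagen RNeasy kit and libraries were made with a SMARTer kit. The authors deposited raw counts per gene and FPKM values in 1 table with gene names. The submitters' processing notes name the build mm10. No aligner, counter or use of strand is given in the sources used here, and without strand, reads of antisense neighbours cannot be told apart. As a check, FPKM values were recomputed from counts for 10787 genes with 200 counts or more, and 99.98% lay within 1% of a common scale.

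Counts were tested in R 4.3.3 with edgeR 4.0.16 (TMM scaling, filterByExpr, quasi-likelihood F test, two-sided). All 12 libraries entered 1 fit with 4 groups and no covariates, and p-values were adjusted by the Benjamini-Hochberg method over the 23191 genes kept, with a threshold of 0.05. The biological coefficient of variation was 0.437. SEs are the fold change divided by the square root of F, and intervals are 95% intervals. DESeq2 1.42.0 and limma 3.58.1 (voom, and log2(FPKM + 1)) were alternatives, with other scalings, filters and left-out libraries. The test was tried on simulated counts before use. CPM are TMM-scaled. Floors of 3 counts cover counting error only.

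All 10 members are named in each comparison. From each other list of the circuit, up to 3 genes per direction past the threshold are named, or, where none passed, the 2 with the smallest p. The result of 1 gene that this rule names is not reported here. The members, lists and tests were chosen with earlier results of these data known. Promoter windows are from RefSeq, on GRCm38.p6.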

Additional observations from a re-analysis of the deposited data

Results flagged for a closer look

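Egr2 was the member whose Taurine and Proline libraries lay on opposite sides of the Model mean. All 3 Taurine libraries lay below the Model mean of 0.210 FPKM and all 3 Proline libraries above it. The Taurine libraries lay within the Model range of 0.0915 to 0.286 FPKM, so no fall under taurine is shown. The difference between the treatments was −1.43 on the log2 scale (Taurine minus Proline, 95% interval −2.39 to −0.48). It did not pass edgeR's quasi-likelihood test (adjusted p = 0.180) and passed with DESeq2 (adjusted p = 0.0301). Egr2 rests on 26 to 139 counts per tumour library.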

How the results depend on the processing

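The fall of all 10 genes from Control to Model and to Taurine passed under all 23 alternatives per gene. For Arc in Model, which holds 0 counts of it, these calls are a description only. From Control to Proline 225 of 230 values kept their call, and the 5 that did not are those of Arc and Egr2 given with that comparison. No paired analysis was possible because the labels' numbers are not shared between groups. Across 4 scalings the median log2 difference of all genes lay between −0.17 and 0.04.

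The comparisons among tumours depended on the tool and the libraries. With DESeq2, genes past the threshold numbered 99 in Taurine against Model, 804 in Proline against Model and 1103 in Taurine against Proline, against 0, 0 and 10 with edgeR, and the members numbered 1 higher, 6 higher and 4 lower. With limma voom the genes were 22 in Proline against Model (2 members) and 47 in Taurine against Proline. With limma on log2(FPKM + 1) they were 2, 3 and 0, and with FPKM + 0.1 they were 1, 4 and 1. The 10 genes of Taurine against Proline became 0 with median-ratio scaling, with no filter, and with only the 2 groups. Leaving out 1 library at a time gave 0 to 7 genes in Taurine against Model, 0 to 232 in Proline against Model (0 to 2 members) and 0 to 312 in Taurine against Proline. The highest counts came without Model 3 for the first and without Proline 3 for the others.

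In 2 alternatives chosen after seeing the data, libraries with transcripts of other organs were left out. Without Model 1 and Model 2, which carry liver transcripts, the counts were 1, 1 and 0. Without Model 3, Taurine 1 and Taurine 2, which carry kidney transcripts, they were 23, 32 (1 member, Junb) and 83.

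Reversed fold changes, none past the threshold, were 0.19 or less in size. In Taurine against Model the log2 fold change of Fos was −0.0313 with voom. Leaving out 1 library at a time, it ran from −0.19 (without Taurine 3) to 0.29 for Fos, from −0.00162 (without Model 1) to 0.25 for Jun and from −0.12 (without Taurine 3) to 0.35 for Atf3, which was also below 0 without Model 2 (−0.0489). Without both Model 1 and Model 2 it was −0.13 for Fosb, −0.19 for Jun, −0.0864 for Junb and −0.00127 for Jund, with Jund at −4.863e-05 in Proline against Model and −0.00123 in Taurine against Proline. In Taurine against Proline, Jund ran from −0.0269 (without Taurine 3) to 0.0855 with 1 library left out, and Nr4a1 was at 0.00448 without the kidney-bearing libraries. The causes were not tested. Depth limits Arc, with 57 counts or fewer in each tumour library, and Egr2.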
